A study of Mus musculus with 7 samples.

Results

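The genes described here are 9 that interferon switches on, Irf7, Isg15, Usp18, Ifit1, Ifit2, Ifit3, Oas1a, Oasl2 and Rsad2, of 36492 gene names on the arrays. They and the lists set beside them were chosen by name, with earlier results of these data known. The probes of the 9 are all non-control probes that carry one of their names in the array files, 11 probes in all. Livers of 3 wild-type (WT) and 4 SHIVA mice were profiled, each on an array of its own. All were female C57BL/6 mice, 8 to 12 weeks old, and all had been fasted for 24 h, so no fed liver stands beside them. SHIVA mice carry a dominant ENU-induced missense mutation in the HMG (DNA-binding) domain of Sox17, a transcription factor, and by the study's methods the viable mutants are heterozygous. The line was kept by backcrossing to C57BL/6, and by the study's methods the linked end of chromosome 1 was resequenced to look for other variants. Sox17 itself had a log2 fold change of 0.69 (SE 0.25, adjusted p = 0.279), which does not check the labels, since the mutation alters the protein and not the gene's dosage. The mice were kept under specific pathogen-free conditions and were not infected or given interferon as far as the labels and the study's methods say.

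Interferons are secreted when cells sense foreign or misplaced nucleic acid. Type I interferons bind a receptor whose kinases, Jak1 and Tyk2, set off the assembly of a transcription factor complex with Irf9, which binds a response element in the promoters of interferon-stimulated genes. Interferon gamma acts through another receptor, on an overlapping set of genes. In liver, hepatocytes, Kupffer cells and endothelial cells all respond, and a low level of these transcripts is present without infection.

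Intensities were quantile normalized and are given on the log2 scale, on which a difference of 1 is a doubling. The same mice are compared throughout, and a level is never compared between genes, since each probe has its own brightness. Each gene was represented by its brightest probe and tested with limma among 20002 genes, those well above background on 3 arrays or more. All 9 genes were well above background on all 7 arrays. None of their spots was flagged as uneven, and no spot of the arrays was saturated. All arrays shared 1 slide and 1 scan, WT livers occupying row 1 and SHIVA livers row 2, and position and genotype therefore cannot be told apart. The 5 hepatocyte markers were above background on every array, with a summed log2 level of 19.7 to 19.8 in both genotypes. In whole liver, fewer cells of a type and less RNA per cell cannot be told apart.

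The response element bound by the Irf9 complex was looked for in the promoters of these genes, since they are the shared sequence through which the genes are known to be controlled. The letters searched were GAAANNGAAA on both strands, in the RefSeq promoter of each gene, a window from 250 bases before to 50 bases after the start site in GRCm38.p6. Matches may overlap each other. Of the 8 genes with a promoter in the table, 5 held at least 1 match, against 3.99% of all 27025 genes with a promoter and 3.86% of the genes tested here. The stretches shown, of the 5 genes with a match, run over the 170 bases before the start site, 5′ to 3′ on the strand of the gene, with every base of a match in capitals.
Isg15, chr4:156200819-156200988 (- strand): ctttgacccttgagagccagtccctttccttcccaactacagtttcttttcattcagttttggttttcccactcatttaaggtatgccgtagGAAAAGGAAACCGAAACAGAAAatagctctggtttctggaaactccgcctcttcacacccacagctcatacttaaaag
Ifit1, chr19:34640719-34640888 (+ strand): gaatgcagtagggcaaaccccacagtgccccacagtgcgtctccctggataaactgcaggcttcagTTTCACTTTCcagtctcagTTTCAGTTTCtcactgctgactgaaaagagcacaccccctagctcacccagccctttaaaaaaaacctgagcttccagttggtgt
Ifit3, chr19:34583359-34583528 (+ strand): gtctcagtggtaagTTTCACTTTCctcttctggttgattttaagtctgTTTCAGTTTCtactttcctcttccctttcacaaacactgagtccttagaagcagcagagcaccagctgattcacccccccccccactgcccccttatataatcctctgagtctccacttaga
Oas1a, chr5:120907526-120907695 (- strand): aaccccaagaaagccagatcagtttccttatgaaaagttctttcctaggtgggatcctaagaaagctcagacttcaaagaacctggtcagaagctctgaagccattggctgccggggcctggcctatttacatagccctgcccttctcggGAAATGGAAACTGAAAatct
Rsad2, chr12:26456453-26456622 (- strand): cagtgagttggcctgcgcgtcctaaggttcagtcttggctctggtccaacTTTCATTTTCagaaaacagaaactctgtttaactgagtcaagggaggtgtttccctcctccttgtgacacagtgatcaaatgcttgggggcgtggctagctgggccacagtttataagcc
Isg15 held 3 overlapping matches, which begin between 78 and 66 bases before the start site. Ifit1 held 2 separate ones, beginning 104 and 85 bases before it, and Ifit3 held 2, beginning 156 and 122 bases before it. Oas1a held 2 overlapping matches that begin 20 and 14 bases before the start site, and Rsad2 held 1, beginning 120 bases before it. These letters were not in the windows of Irf7, Ifit2 and Oasl2. Among 35 other interferon-stimulated genes, 9 of 25 with a promoter (36.0%) held a match. It was 9 of 17 (52.9%) both for interferon gamma genes and for interferon ligands. For nucleic acid sensors it was 3 of 13 (23.1%), and for interferon receptors and signalling genes 1 of 13 (7.69%). A match is a description of the sequence, and binding was not measured.

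Across the 9 genes, the SHIVA mean was above the WT mean for each, with log2 fold changes from 0.38 to 0.81 and a median of 0.56, a 1.47-fold difference, where the median over all genes tested was -0.01 and 48.8% of genes had a fold change above 0. None of the 9 passed the threshold over all genes (adjusted p from 0.134 to 0.594 in limma with Benjamini-Hochberg adjustment), where 0.375% of genes tested did. At an unadjusted p under 0.05 limma gave 2 of the 9, Rsad2 and Ifit1, both higher in SHIVA livers, where 7.24% of genes tested were higher at that level. The methods' t-test also called 0 of the 9, with 2 at an unadjusted p under 0.05, where 2299 of all genes tested were, in either direction. Under the alternatives this count of the 9 ran from 0 to 7. It was 0 with a minimum change of 2-fold (115 of all genes). It was 7 with array weights (4503 of all genes) and without SHIVA replicate 4 (2844). In 3 of the 9, Rsad2, Ifit1 and Ifit3, every SHIVA liver was above every WT liver, where 6.14% of genes tested had that order. With WT replicate 3 left out, 7 of the 9 had it, beside 14.6% of all genes, and with SHIVA replicate 4 left out, 7 of the 9, beside 10.4%. Because the 9 genes vary together from mouse to mouse, their shared direction is not 9 independent measurements. The direction was the same for each of the 9 under every alternative run, 164 fold changes in all.

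**Figure D1:**
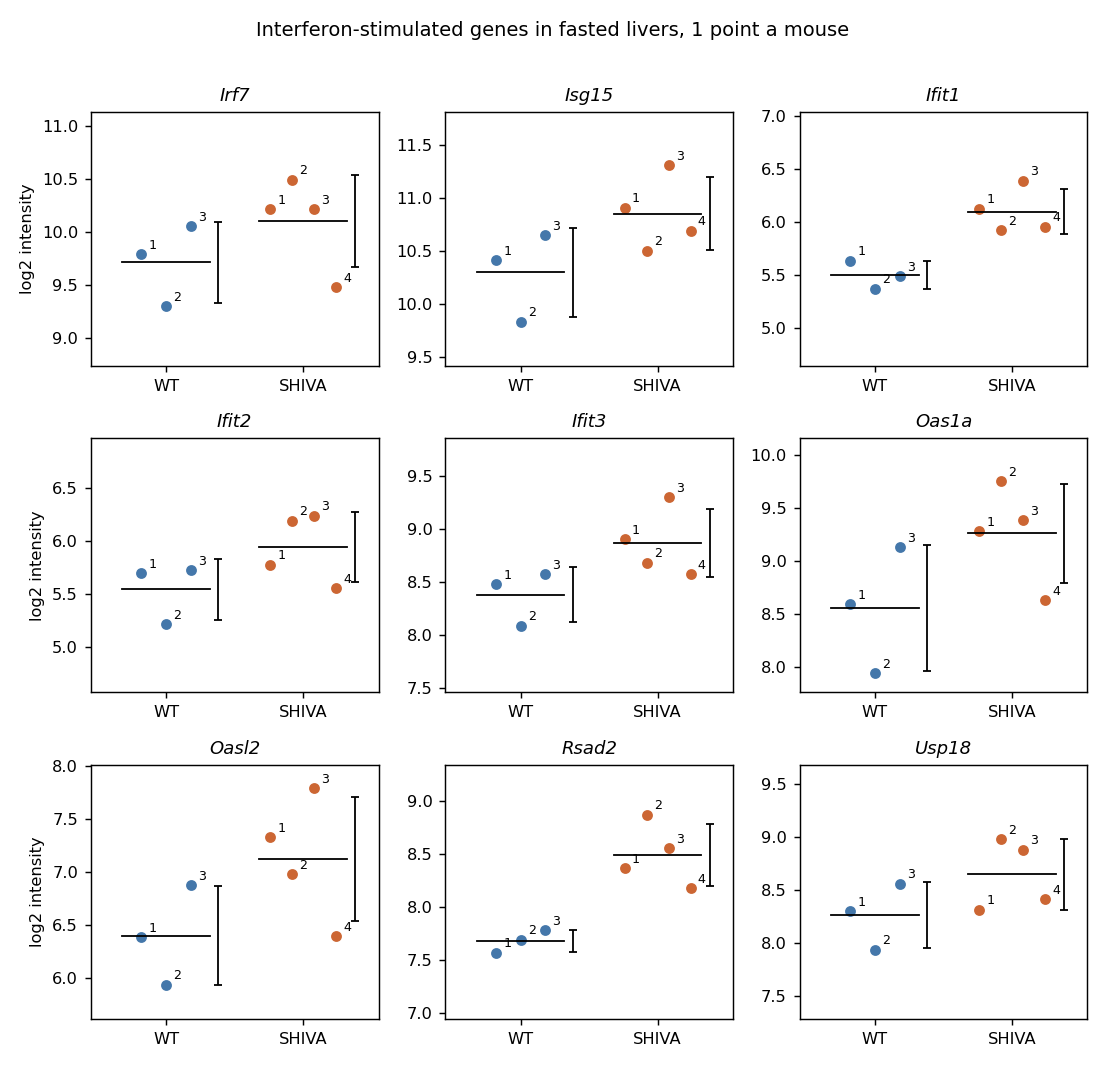
Log2 intensity (vertical axis, the same number of units in each panel) of the 9 interferon-stimulated genes in 3 WT (blue) and 4 SHIVA (orange) livers, 1 point a mouse with its replicate number. Horizontal lines are means and the bars beside them 1 SD; WT replicate 2 is the lowest WT point in 8 panels, and the genotypes are apart in Rsad2, Ifit1 and, by 0.000861, Ifit3.

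Irf7 encodes the transcription factor that amplifies the interferon response by raising interferon alpha genes. Its probe lies on the minus strand of chromosome 7, from 148450664 to 148451014 in mm9, a span of 351 bases for a probe of 60. The log2 intensity was 9.79, 9.30 and 10.05 in WT replicates 1 to 3 and 10.21, 10.49, 10.22 and 9.48 in SHIVA replicates 1 to 4. Of the SHIVA livers 3 were above all WT livers, while SHIVA replicate 4 lay below 2 of the 3, so that the genotypes overlapped. The log2 fold change was 0.39 (SE 0.27, adjusted p = 0.594), the highest adjusted p among the 9.

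Isg15 encodes a ubiquitin-like protein that is joined to other proteins during the response. Its brightest probe, on the minus strand of chromosome 4 from 155573649 to 155573708, read 10.41, 9.83 and 10.65 in WT and 10.91, 10.504, 11.31 and 10.69 in SHIVA livers. Only SHIVA replicate 2 fell among the WT values, below WT replicate 3. The means were 10.30 ± 0.42 (SD, n = 3) and 10.85 ± 0.35 (SD, n = 4), a log2 fold change of 0.56 (SE 0.25, adjusted p = 0.394). This probe shares a stretch of 20 bases with a probe for the predicted gene Gm9706, whose own log2 fold change was 0.42 (adjusted p = 0.418). A second Isg15 probe shares no such stretch with any probe of another gene. It gave 6.76, 6.01 and 7.001 in WT and 7.37, 6.78, 7.75 and 7.01 in SHIVA livers (log2 fold change 0.64, SE 0.30, adjusted p = 0.418 over probes), with WT replicate 2 lowest and SHIVA replicate 3 highest as in the first.

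Usp18 encodes the protease that removes Isg15 from proteins and also dampens signalling at the type I receptor. Its probe lies on the plus strand of chromosome 6 from 121220874 to 121220933. The log2 intensity was 8.30, 7.93 and 8.56 in WT and 8.31, 8.98, 8.88 and 8.41 in SHIVA livers. SHIVA replicates 2 and 3 were above all WT livers, and SHIVA replicates 1 and 4 lay between the WT values. The log2 fold change of 0.38 (SE 0.23, adjusted p = 0.520) was the smallest of the 9.

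The Ifit genes, neighbours on mouse chromosome 19, encode proteins that bind foreign RNA and hold back its translation. Ifit1, read on the plus strand from 34723796 to 34723855, gave 5.63, 5.37 and 5.49 in WT and 6.13, 5.92, 6.39 and 5.95 in SHIVA livers. The highest WT liver was 0.29 below the lowest SHIVA liver. The means were 5.50 ± 0.13 (SD, n = 3) and 6.10 ± 0.21 (SD, n = 4), a 1.52-fold difference (log2 0.60, SE 0.16, adjusted p = 0.195).

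Ifit2, on the plus strand from 34650244 to 34650303, gave 5.69, 5.21 and 5.72 in WT and 5.77, 6.19, 6.24 and 5.55 in SHIVA livers. SHIVA replicate 4 was below 2 WT livers and SHIVA replicate 1 only just above them. The log2 fold change was 0.40 (SE 0.22, adjusted p = 0.492).

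Ifit3, on the plus strand from 34663105 to 34663164, gave 8.477, 8.085 and 8.570 in WT and 8.901, 8.677, 9.295 and 8.571 in SHIVA livers. The genotypes were apart by no more than 0.000861 between WT replicate 3 and SHIVA replicate 4, which is no separation at the precision of an array, and under normexp background correction they overlapped, leaving 2 of the 9 genes apart. The log2 fold change was 0.48 (SE 0.21, adjusted p = 0.375). Ifit3b, a close copy of Ifit3, has a probe of its own that shares no stretch of 20 bases with this one, while binding of either transcript to the other probe was not tested.

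The oligoadenylate synthetase family senses double-stranded RNA. Oas1a makes the short oligoadenylates that switch on the nuclease RNase L, and Oasl2 is a relative with ubiquitin-like domains. The brighter Oas1a probe, on the minus strand of chromosome 5 from 121346735 to 121346794, gave 8.59, 7.94 and 9.13 in WT and 9.28, 9.75, 9.39 and 8.63 in SHIVA livers. All SHIVA livers but replicate 4 were above the WT range. The log2 fold change was 0.71 (SE 0.33, adjusted p = 0.402). The second probe, from 121348338 to 121348397, gave 0.59 (SE 0.24, adjusted p = 0.338 over probes) with the same lowest mouse in each genotype. Mouse Oas1 genes are close copies of each other, and binding of the other copies to these probes was not tested.

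Oasl2, on the plus strand of chromosome 5 from 115362168 to 115362227, gave 6.38, 5.94 and 6.87 in WT and 7.33, 6.98, 7.79 and 6.40 in SHIVA livers. As for Oas1a, SHIVA replicate 4 alone fell into the WT range. The log2 fold change was 0.73 (SE 0.34, adjusted p = 0.408). Its SD within genotype, pooled over both, was 0.54, the widest of the 9.

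Rsad2 encodes viperin, a radical SAM enzyme that makes a chain-ending nucleotide against viral polymerases. It had the largest log2 fold change of the 9. Its probe, on the minus strand of chromosome 12 from 27127859 to 27127918, gave 7.57, 7.69 and 7.78 in WT and 8.36, 8.87, 8.55 and 8.18 in SHIVA livers. The WT livers lay close together and every SHIVA liver was above them, the lowest by 0.40. The means were 7.68 ± 0.11 (SD, n = 3) and 8.49 ± 0.30 (SD, n = 4), a 1.76-fold difference (log2 0.81, SE 0.19, adjusted p = 0.134).

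**Figure D2:**
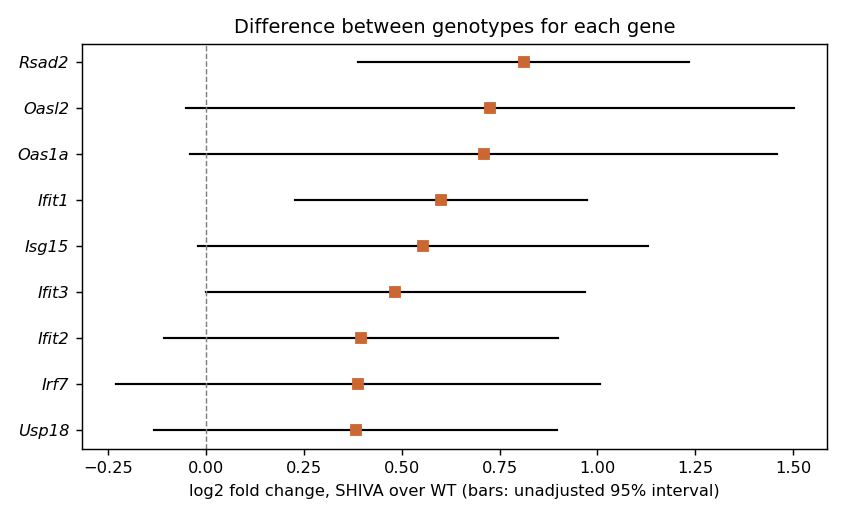
Log2 fold change of SHIVA over WT (horizontal axis) for each of the 9 genes, from 3 WT and 4 SHIVA livers, with the unadjusted 95% interval of limma as a bar. All 9 points lie above 0, from 0.38 for Usp18 to 0.81 for Rsad2, and the intervals of Rsad2 and Ifit1 alone leave out 0.

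Mice of 1 genotype also differed from each other in these genes. The SD within genotype had a median of 0.32 over the 9 genes, from 0.19 for Ifit1 to 0.54 for Oasl2, where the median over all genes tested was 0.26. WT replicate 2 was the lowest WT liver in 8 of the 9 genes, a place it held in 28.5% of all genes. It was the lowest of all 7 livers in 8, beside 16.1% of all genes. Rsad2 was the exception. WT replicate 3 was the highest WT liver in 8 genes, all but Ifit1, a place it held in 34.8% of all genes. Among the SHIVA livers, replicate 4 was lowest in 6 genes, a place it held in 24.1% of all genes.

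The 4 SHIVA livers did not share 1 order. Replicate 3 was highest in Isg15, Ifit1, Ifit2, Ifit3 and Oasl2, and replicate 2 in Irf7, Oas1a, Rsad2 and Usp18. Averaged over the 9 genes, each centred on its own mean, the log2 values were -0.26, -0.66 and -0.04 in WT replicates 1 to 3 and 0.22, 0.35, 0.54 and -0.15 in SHIVA replicates 1 to 4. By this mean SHIVA replicate 4 lay below WT replicate 3. With WT replicate 2 left out, the median log2 fold change of the 9 was 0.34, and with SHIVA replicate 4 left out it was 0.61.

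**Figure D3:**
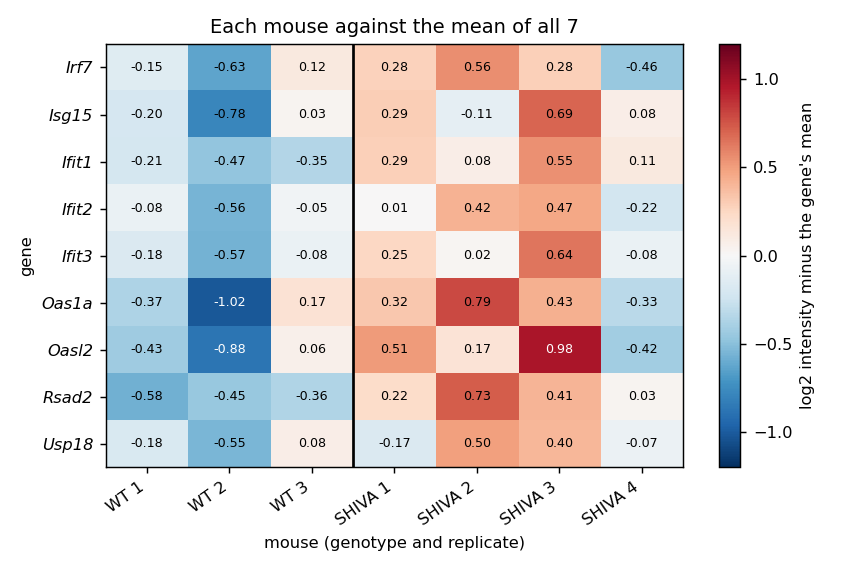
Log2 intensity of each of the 9 genes (rows) in each mouse (columns, WT left of the line) minus the mean of the gene over the 7 mice, in colour and as printed values. WT replicate 2 is below the mean in every gene and SHIVA replicate 3 above it in every gene.

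Each gene was set against the mean of the other 8 across the 7 mice. Pearson's r was highest for Ifit2 (0.94), Oasl2 (0.92), Ifit3 (0.91) and Oas1a (0.91), and lowest for Rsad2 (0.78). After the genotype means were taken out, r was still 0.92 for Ifit2 and 0.88 for Oasl2, but 0.57 for Ifit1 and 0.50 for Rsad2. The genes with the tightest WT values, Ifit1 and Rsad2, were thus those that followed the mice least within a genotype. These values describe the same 7 livers and rest on shared arrays, so no p is given.

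The rest of the pathway was read from 5 other lists, in which 88 genes were tested. None of the 88 passed the threshold (smallest adjusted p = 0.144, for Cxcl10 and Mx1), 73 had a fold change above 0, and their median was 0.31. At an unadjusted p under 0.05 limma gave 22, all higher in SHIVA livers, where 7.24% of all genes tested were higher at that level, and the methods' t-test gave 15. Under the alternatives this count ran from 0, with a minimum change of 2-fold, to 37, with array weights. In 9 of the 88 every SHIVA liver was above every WT liver, where 6.14% of all genes tested had that order, and in 1 every one was below.

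Of 33 other interferon-stimulated genes tested, 28 had a fold change above 0, with a median of 0.36 and 0 called. Mx1, a GTPase that blocks viral replication, gave 5.27, 4.90 and 5.17 in WT and 5.81, 6.46, 6.02 and 5.70 in SHIVA livers, which did not overlap (log2 fold change 0.89, SE 0.21). Ifi44 followed with 0.87 (SE 0.34), with overlap. Oas3, of the same family as Oas1a, had 0.75 (SE 0.68) and was above background on 5 arrays only, so that its value rests on dim spots.

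Of 21 genes of the interferon gamma list, which holds guanylate-binding proteins, antigen processing genes and chemokines, 20 had a fold change above 0, with a median of 0.45 and 0 called. The largest were Cxcl9, a T cell chemokine, with 1.52 (SE 0.43, adjusted p = 0.207), Gbp2, a guanylate-binding GTPase, with 1.37 (SE 0.42, adjusted p = 0.233), and Cxcl10, a second T cell chemokine. Cxcl10 gave 6.30, 6.11 and 6.75 in WT and 7.55, 8.31, 7.94 and 6.99 in SHIVA livers, a 2.48-fold difference without overlap (log2 1.31, SE 0.31). SHIVA replicate 4 was the lowest SHIVA liver and WT replicate 2 the lowest WT liver in each of these 3, as they were in 6 and in 8 of the 9 genes.

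The interferon ligands differed in whether they were detected. Of 15 on the arrays, 5 (Ifna1, Ifna5, Ifna14, Ifnab and Ifnl3) were above background on all 7 arrays, while 7 were not above background on any array, among them Ifnb1 and Ifng. Of these names, all but Ifna14 and Ifnab lie outside the rule for named genes and were given after their values were seen. In all 6 ligands were tested. Their median log2 fold change was -0.12, with 2 of 6 above 0 and 0 called. The 3 with the largest changes were lower in SHIVA livers, Ifna12 with -0.40 (SE 0.29), Ifnab with -0.16 (SE 0.16) and Ifna14 with -0.13 (SE 0.15). Interferon alpha genes are close copies, and cross-binding between their probes was not tested.

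Among receptors and signalling genes, 13 of 14 had a fold change above 0, with a median of 0.18 and 0 called. Socs3, an inhibitor of cytokine signalling, had 0.73 (SE 0.35), and its highest value by far was in SHIVA replicate 2, at 9.65 against 7.94 to 8.69 in the other SHIVA livers. The kinases Jak2 and Jak1 had 0.42 (SE 0.17) and 0.34 (SE 0.14), both without overlap. Of 14 nucleic acid sensors and adaptors, 10 had a fold change above 0, with a median of 0.17. The largest were Zbp1, a sensor of Z-form nucleic acid, with 1.15 (SE 0.38), Ikbke, a kinase of the sensing pathway, with 0.99 (SE 0.28), and the transcription factor Irf5 with 0.92 (SE 0.29).

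**Figure D4:**
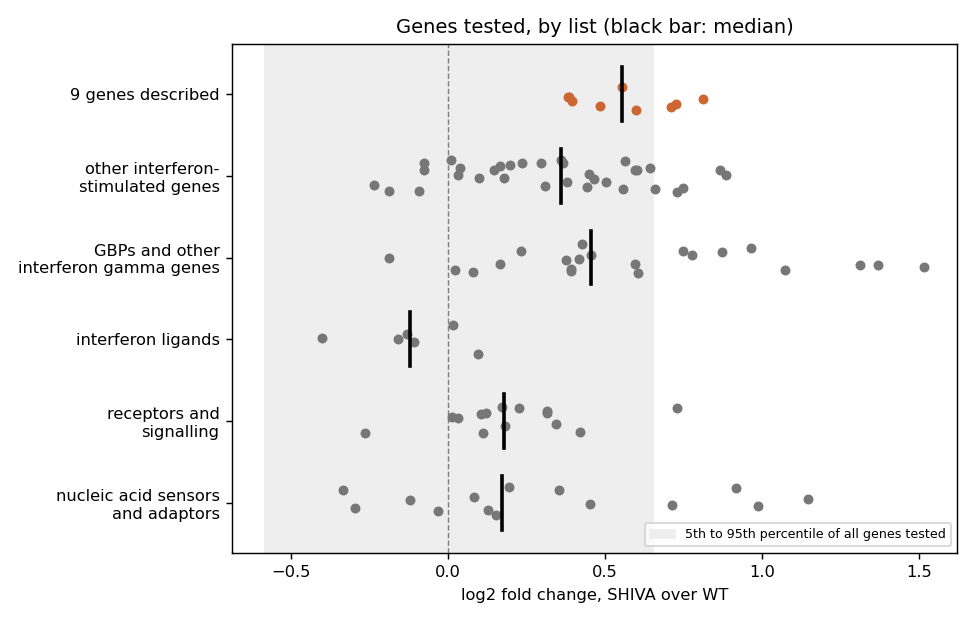
Log2 fold change of SHIVA over WT (horizontal axis) for every gene tested in the 6 lists (rows), 1 point a gene, with the list's median as a black bar. The grey band spans the 5th to 95th percentile of all 20002 genes tested, -0.58 to 0.65; the medians run from -0.12 for the ligands to 0.56 for the 9 genes, of which 3 lie above the band.

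The genes outside these lists whose pattern was most like the mean of the 9 were sought among 8624 genes with an SD over the arrays of at least 0.3. Among the most alike were Ccl7 (Pearson's r 0.99, Spearman's rho 1), Bcl2a1c (0.99, rho 1), Gm12250 (0.98, rho 0.96) and Ccl2 (0.98, rho 0.96). Ccl7 was above background on 0 WT and 3 SHIVA arrays and Bcl2a1c on 1 WT and 4 SHIVA arrays, so that their likeness rests largely on values near background, while Gm12250 and Ccl2 were above it on all 7. Ccl2 and Ccl7 are chemokines that draw monocytes. Ccl2 gave 5.74, 4.97 and 6.57 in WT and 7.39, 7.18, 7.92 and 6.33 in SHIVA livers, again lowest in WT replicate 2 and with SHIVA replicate 4 below WT replicate 3. With WT replicate 2 and SHIVA replicate 3 left out, r for these genes lay between 0.94 and 0.98. They were picked from the highest of 8624, of which 233 (2.70%) had r above 0.9, and the likeness is a description over 7 mice, with no p.

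Markers of other cells varied between the mice too, some lists being lowest in the same mice as the 9 genes and others in different mice. Of 9 Kupffer cell markers, 9 had a fold change above 0, where 48.8% of all genes tested did, and 0 were called. The log2 fold changes had a median of 0.36 and were uneven. Vsig4 had 0.07 (SE 0.25), Clec4f 0.09 (SE 0.24) and Timd4 0.21 (SE 0.36). C1qa had 0.36 (SE 0.24), C1qb 0.36 (SE 0.27) and C1qc 0.42 (SE 0.26). The largest were Cd5l with 0.66 (SE 0.39), Adgre1 with 0.78 (SE 0.35) and Marco with 1.54 (SE 0.61). The summed log2 level of these markers was 14.3 to 15.3 in WT and 14.7 to 15.9 in SHIVA livers. Their centred mean was lowest in WT replicate 2, at -0.84, and in SHIVA livers lowest in replicate 4, at -0.33, the same mice in which the 9 genes were lowest. Of 8 neutrophil markers, 3 were above background on every array, S100a8, S100a9 and Camp, with log2 fold changes of 1.02, 1.04 and 1.13 and 0 called. Ngp and Ltf, which define neutrophil granules, were not above background on any WT array and were tested only through 3 SHIVA livers. The summed log2 level of all 8 neutrophil markers, tested or not, was 8.78 to 10.3 in WT and 8.49 to 11.1 in SHIVA livers, lowest in SHIVA replicate 4. The centred mean of the 6 tested was -1.04 in WT replicate 3 and -1.13 in WT replicate 2, and includes values near background. In WT replicate 3 S100a8 and S100a9 were lowest of the WT livers, while Camp was highest. Of the 2 monocyte markers tested, F13a1 likewise was above background on 0 WT and 3 SHIVA arrays. Chil3, above it on 2 WT and 3 SHIVA arrays, had a log2 fold change of 1.201 (SE 0.54, adjusted p = 0.390).

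Acute-phase genes, which the liver raises in inflammation, had a fold change above 0 in 11 of 12 (median 0.47, 0 called), and SHIVA replicate 2 was far above the rest, with a centred mean of 1.45 where the other SHIVA livers lay between -0.41 and 0.22. Among the SHIVA livers replicate 2 was highest in 4 of the 9 genes and lowest in 2. Leaving it out gave a median log2 fold change of 0.55. Markers of plasmacytoid dendritic cells, a main source of interferon alpha, had a fold change above 0 in 1 of 4, and those of NK cells in 1 of 3, T cells in 2 of 4, B cells in 3 of 4, endothelial cells in 2 of 5 and bile duct cells in 0 of 3, with 0 called in each list. For none of these 6 lists was the centred mean lowest both in WT replicate 2 among the WT livers and in SHIVA replicate 4 among the SHIVA livers. The NK cell and bile duct lists were lowest of the WT livers in replicate 2, at -0.30 and -0.29, but not lowest in SHIVA replicate 4. The endothelial list was lowest of the SHIVA livers in replicate 4. In that list WT replicates 1 and 2 were nearly level, at -0.059 and -0.055. Taken gene by gene, WT replicate 2 was lowest of its genotype in 28.5% of all genes and SHIVA replicate 4 in 24.1%. The part of these cells and of the acute phase in the values of the 9 genes was not tested.

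**Figure D5:**
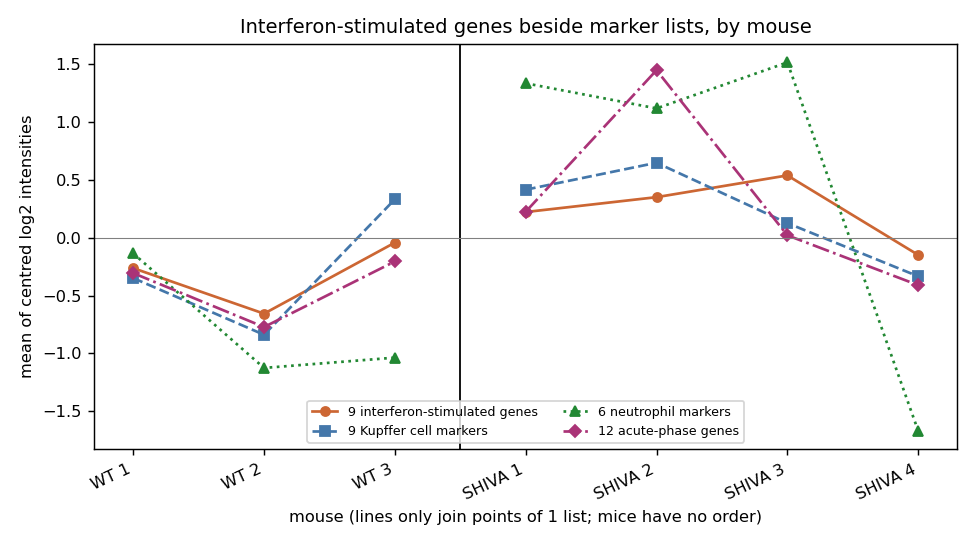
Mean of centred log2 intensities (vertical axis) of the 9 interferon-stimulated genes, 9 Kupffer cell markers, 6 neutrophil markers and 12 acute-phase genes in each mouse (horizontal axis). The interferon-stimulated genes run from -0.66 in WT replicate 2 to 0.54 in SHIVA replicate 3, and all 4 lists are lowest of the WT livers in WT replicate 2 and lowest of the SHIVA livers in SHIVA replicate 4. The neutrophil mean includes Ngp and Ltf, which were above background on 0 WT arrays. Of its markers above background on every array, Camp was lowest of the WT livers in replicate 2, but S100a8 and S100a9 in replicate 3.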

How the data were processed

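RNA from each liver was hybridized to a single-colour Agilent array. For every array the authors deposited scanner intensities from Agilent Feature Extraction 10.5.1.1 (version per the submitters' processing notes) with spatial and multiplicative detrending and no subtraction of a local background, together with the software's flags and background calls. A second deposited table holds log2 values, described as quantile normalized raw values. The scanner intensities were put on the log2 scale, and flagged spots (120 to 163 per array) were left out. The log2 values were then quantile normalized over the 7 arrays in R 4.3.3 with limma 3.58.1, and averaged per probe. Per array, 44.5% to 48.7% of probes stood well above background, and the number of arrays limits the precision. Symbols were updated through RefSeq accessions (GRCm38.p6). Probe positions are those of mm9 in the files; whether they fall in coding sequence was not annotated here.

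Genes were tested with limma's empirical Bayes test, with calls made where the Benjamini-Hochberg adjusted p over the 20002 genes tested was under 0.05. Adjusted p-values of second probes were taken over all probes that passed the same filter. The study's general statistics name an unpaired t-test, run as an alternative. In simulated data with 200 genes changed by a log2 value of 2, 86% of them were called and 7.53% of calls were false; the differences described here are smaller than that. Other alternatives were normexp with an offset of 50, the uncorrected mean signal, 75th percentile scaling, the authors' table, a stricter or no filter on dim probes, averaging the probes of a gene, array weights, a minimum fitted change of 2-fold, omission of each mouse and a block for the replicate number. Non-overlap between genotypes under these was added after seeing the data.

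The 9 genes and all lists were chosen with earlier results of these data known. Named genes are all 9, in each other list every called gene and the 3 with the largest fold change by size, and the 5 genes most like the mean of the 9, of which 1 is not reported here. Of marker lists and acute-phase genes only those that bear on a result are named. The Kupffer cell markers other than Marco, Adgre1 and Cd5l, and the neutrophil markers S100a8 and S100a9, are named outside this rule. Promoters came from RefSeq; Usp18 was not matched. Replicates are separate mice.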

Additional observations from a re-analysis of the deposited data

Results flagged for a closer look

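Among 61 genes searched, 3 had a SHIVA liver far from the other 3, where chance flags about 1 in 20 genes, and none of them is among the 9 interferon-stimulated genes. All 3 concern SHIVA replicate 2. The acute-phase gene Saa2 had a log2 intensity of 17.36 in that mouse against 11.98 to 12.82 in the other SHIVA livers. Gzma, which encodes a granzyme of cytotoxic lymphocytes, had 9.04 against 7.17 to 7.44. Tat, an amino acid-degrading enzyme of hepatocytes, had 15.42 against 15.91 to 16.00.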

How the results depend on the processing

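None of the 9 genes was called under any of the 18 alternatives, and each kept a fold change above 0 in all of them (smallest adjusted p of a gene 0.0552). The median log2 fold change lay between 0.44 and 0.70 under the alternatives that kept all mice and between 0.34 and 0.61 with single mice left out. Their median SD within genotype was 0.32 under 75th percentile scaling and 0.36 in the authors' table. Of the other interferon genes, array weights called 2, Cxcl10 and Ikbke, and leaving out single mice called 0 to 5. The 5 were Psmb10, Irf5, Cxcl9, Gbp2 and Ikbke, without WT replicate 3. The count of the 9 genes with every SHIVA liver above every WT liver lay between 3 and 7 with single mice left out, and was 2 under normexp. Over all genes, 75 were called in the main setting, 142 with the mean signal and in the authors' table alike, 13 without a filter on dim probes, 392 with array weights, 4 with a minimum change of 2-fold, and 0 by the methods' t-test after adjustment (2299 at an unadjusted p under 0.05), while leaving out single mice gave 3 (without WT replicate 1) to 416 (without WT replicate 3). The cause was not tested.

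Mouse numbers 1 to 3 occur in both genotypes, but the labels do not pair the mice. Deviations of same-numbered mice from their genotype means correlated at -0.05, 0.01 and 0.24. With the number as a replicate block, which leaves out SHIVA replicate 4 in effect, 0 of the 9 genes, 0 other interferon genes and 32 genes in all were called, and the median of the 9 was 0.61.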
